A study of Monodelphis domestica with 25 samples.

Results

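The subject is a group of 60 opossum transcripts whose level in cultured whole blood was still at or above 50% of the fresh level after 48 h and was at 25% of the 48 h level or less after 72 h. They were chosen by their measured levels among 22049 transcript identifiers in an untreated time course of blood from LSD strain opossums (Monodelphis domestica, the gray short-tailed opossum), a laboratory marsupial. The measure was the TMM-scaled CPM, which is the read count scaled to library size after correcting each library for its composition. For each time, the mean of 3 libraries plus 0.1 CPM was taken. A transcript was kept if its 12, 24 and 48 h means were each at least 0.5 of the 0 h mean, its 12 h mean was under 4 times the 0 h mean, its 48 h mean was at least 10 and its 72 h mean was at most 0.25 of the 48 h mean. Another 4 identifiers were left out by name. Because these values chose the members, its changes over time are described below without a test, and the tests independent of the choice come from a second experiment.

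The time course consisted of 15 untreated libraries, 3 at each of 0, 12, 24, 48 and 72 h, of which A0036, A0039 and A3538 each supplied 1 per time. The second experiment held 10 libraries of blood labelled A9394 with the numbers R1 to R4. They were 2 controls at 12 h (R1, R2), 2 controls at 24 h (R2, R3), perfluorooctanoic acid (PFOA) at 400 and 800 µM with 1 library each at 12 h (both R2) and at 24 h (both R1), and GenX at 1200 µM with 2 libraries at 12 h (R3, R4). Both are fluorinated surfactants: PFOA has a fully fluorinated carbon chain ending in a carboxylic acid, while the chain of GenX is interrupted by an ether oxygen. The doses were read from the words low and high in the titles. Per the labels' protocols, all blood was diluted in RPMI-1640 medium with glutamine, penicillin and streptomycin, and treated and control cultures of the second experiment contained 0.1% dimethyl sulfoxide, although the controls are labelled untreated. The 2 dilutions used in the time course are not tied to libraries, and the labels do not say whether R1 to R4 are animals or wells. The p-values of the second experiment therefore measure the spread between these libraries, which may be technical.

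As background, whole blood holds red cells and platelets, which carry little RNA, beside neutrophils, monocytes and lymphocytes. In culture, neutrophils are short-lived, monocytes attach and mature toward macrophages, and lymphocytes last longer. The level of a transcript reflects its synthesis, its decay and the number of cells that carry it. In bulk libraries such as these, fewer cells of a type and less RNA per cell cannot be told apart. The files name the members by transcript identifier only, and none of the identifiers matched the reference gene table, so no gene name, function or sequence is given for them and the blood cell types could not be checked by their markers.

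Total counts were 51349217 to 336472834 per library in the time course, 3654215 to 11685427 in the control and GenX libraries and 366269 to 4027470 in the PFOA libraries. The members were well covered in the time course, with a median of 3069 counts per member and library at 48 h and a lowest value of 62. Together they held 0.106 to 0.267% of the counts of a library at 0 h, 0.399 to 0.414% at 48 h and 0.0325 to 0.0886% at 72 h. No pair of members had identical counts. In the smallest PFOA library (800 µM, 24 h), 26 of the 60 had no count. A level of 3 counts, an approximate upper limit behind a count of 0 for independent counts, corresponded there to 8.49 CPM. In the 24 h library at 400 µM, 10 had none and the level of 3 counts was 3.67 CPM. Most counts of 1 to 12 in both libraries were even (75.1% and 72.4%), so counts were not independent and these limits may be higher.

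The typical member kept a similar level up to 48 h, and the step to 72 h was the largest of the course, which the choice of members largely set. Over the 5 times in order, the median of the 60 means was 23.7, 29.4, 33.4, 25.3 and 4.33 CPM. Among the first 4 times, the highest mean fell at 0 h in 9 members, 12 h in 20, 24 h in 12 and 48 h in 19. Of the 6900 transcripts that met every criterion up to 48 h, the 60 members were 0.87%. The median 72 over 48 h ratio of these 6900 was 1.00, with quartiles of 0.792 and 1.24, and 377 of them (5.46%) were at or under 0.5. So the typical transcript with a like history up to 48 h had the same scaled level at 72 h. The scaling itself centres most transcripts on no change between libraries, so a loss of RNA shared by most transcripts would not show.

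The members were described in 3 groups by the ratio of the 48 h to the 0 h mean. In 40, called held here, the ratio was under 2. Their medians were 29.6, 37.3, 33.6, 23.6 and 2.97 CPM at the 5 times. In 15, called raised, the ratio was 2 to under 8, and the medians were 12.5, 14.6, 25.6, 50.3 and 10.2 CPM. In 5, called strongly raised, it was 8 or more, and the medians were 7.89, 16.4, 83.2, 119.97 and 20.6 CPM. The 0, 12, 48 and 72 h medians of these 5 were the means of ENSMODT00000043318. That transcript took 86.2% of its 48 h mean from A3538. At 72 h the median of the held group lay below its fresh level, as the cut-offs require. That of the strongly raised group was still above it, which the cut-offs allow. It rests on ENSMODT00000043318, at 3.96, 10.6 and 47.3 CPM in A0036, A0039 and A3538 at 72 h. Its 0 h levels were 9.07, 8.67 and 5.92 CPM, so A0036 was below its fresh level. The group medians by time are drawn in the plot of levels over the time course.

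**Figure D1:**
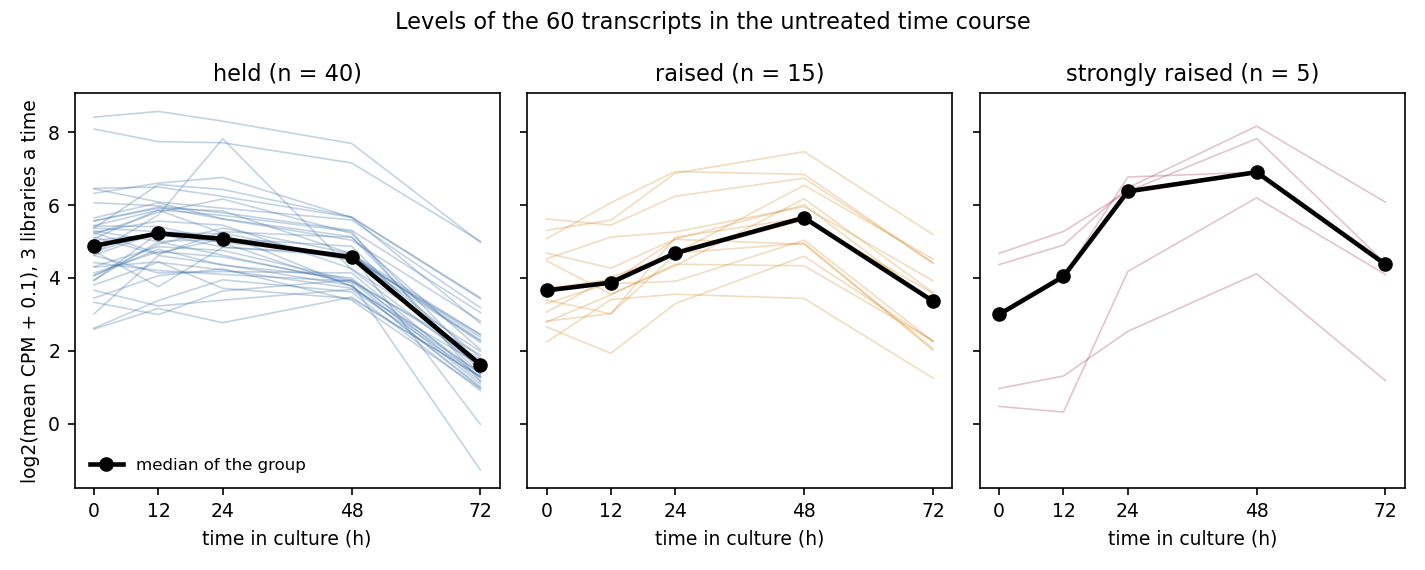
Log2 of the mean CPM plus 0.1 (vertical axis, mean of 3 libraries) against hours in culture (horizontal axis) for each of the 60 transcripts (thin lines) in the held, raised and strongly raised groups, with the group median in black. The median of the 40 held transcripts lies between 23.6 and 37.3 CPM up to 48 h although single lines rise or fall within that time, the medians of the 15 raised and 5 strongly raised ones are highest at 48 h, and every line drops from 48 to 72 h, as the choice of members requires.

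Among the held transcripts the highest at 48 h was ENSMODT00000000395. In A0036, A0039 and A3538 the 0 h levels were 369.7, 416.5 and 241 CPM, the 12 h levels 365, 493 and 288, the 24 h levels 373, 319 and 260.04, the 48 h levels 196, 164.5 and 262 and the 72 h levels 43.2, 5.45 and 45.8. All 3 libraries at 72 h were below all 12 earlier ones, and A0039 was the lowest. The second, ENSMODT00000012412, had means of 273 ± 22.8 (SD, n = 3), 215 ± 22.6, 210.2 ± 41.0, 143 ± 33.5 and 32.1 ± 21.9 CPM over the 5 times. Its mean was therefore lower at each later time, and the drop to 72 h came on top of a decline that had already reached 0.525 of the fresh level.

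Among the raised transcripts, ENSMODT00000005482 had means of 39.6 ± 9.99, 48.0 ± 19.8, 118 ± 34.2, 177 ± 37.0 and 36.6 ± 6.51 CPM (SD, n = 3). It was back near its fresh level at 72 h. ENSMODT00000013207 was highest at 24 h, with 121.5 ± 34.2 CPM, and had 115 ± 33.6 at 48 h and 21.2 ± 4.21 at 72 h, against 33.7 ± 14.9 in fresh blood.

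The strongly raised ENSMODT00000011288 had the highest 48 h mean of all members. In A0036, A0039 and A3538 the 0 h levels were 24.1, 17.6 and 19.9 CPM, the 12 h levels 32.7, 39.2 and 17.6, the 24 h levels 121, 119 and 27.3, the 48 h levels 456, 269.7 and 140.2 and the 72 h levels 89.9, 70.2 and 42.9. A3538 was the lowest of the 3 from 12 h on, and at 72 h all 3 libraries were still above the fresh ones. ENSMODT00000005766 had means of 25.5 ± 7.65, 38.7 ± 22.7, 83.2 ± 42.6, 228 ± 133 and 21.0 ± 8.75 CPM (SD, n = 3), and so was near its fresh level at 72 h.

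The 48 over 72 h ratio of the means had a median of 5.35 and reached 35.3. The highest belonged to ENSMODT00000042052, which was at 18.4, 9.94 and 15.03 CPM in A0036, A0039 and A3538 at 48 h, but 0.253, 0.0894 and 0.597 CPM at 72 h. The second highest, 25.2, belonged to ENSMODT00000010625, with 39.8, 15.6 and 18.8 CPM at 48 h and 1.61, 0.188 and 0.861 CPM at 72 h. Most members lay far closer to the limit of the choice. Just inside it were ENSMODT00000020743 and ENSMODT00000003899, whose 72 over 48 h ratios were 0.249 and 0.245, and just outside it were ENSMODT00000035851 and ENSMODT00000013236, with 0.251 and 0.254.

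The decline was present in all 3 identifiers but was steepest in A0039. No member was higher at 72 than at 48 h in any identifier. The median 48 over 72 h ratio of the members was 4.71 in A0036, 13.6 in A0039 and 4.62 in A3538, while over the 6900 transcripts above it was 1.03, 0.971 and 1.00. The ratio was at least 4 in 38, 54 and 35 of the 60 members in that order, and A0039 was the lowest of the 72 h libraries for 44 of them. It was at least 4 in all 3 identifiers for 22 members, in 2 for 23 and in 1 for 15. The means of these same libraries chose the members. Nothing is therefore read from the agreement between identifiers or from the contrast with the 6900 transcripts. The choice rests on means, so a library with a high 48 h level or a low 72 h level weighs on it. Without the 72 h library of A0039 the same criteria kept 41 transcripts, without that of A3538 they kept 100, and with library totals alone in place of TMM scaling they kept 106, including all 60.

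**Figure D2:**
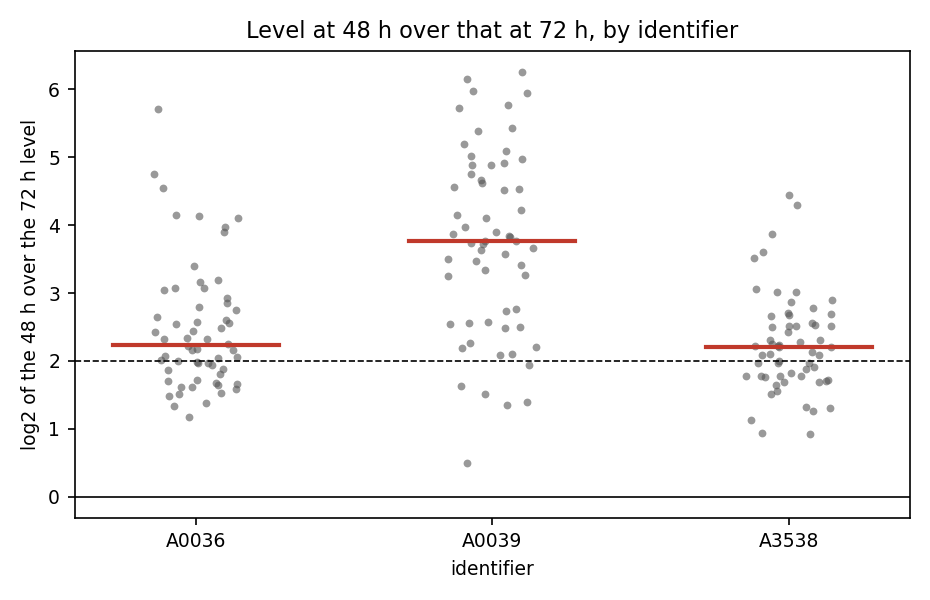
Log2 of the 48 h over the 72 h level (vertical axis, CPM plus 0.1 in both) of each of the 60 transcripts in each identifier (horizontal axis), with the median as a red bar. The dashed line marks a ratio of 4, and all points lie above 0, which the choice of members favours, with the medians at ratios of 4.71, 13.6 and 4.62.

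In 58 of the 60 members every 72 h library was below every 48 h library. The same held for 15.9% of the 15524 transcripts tested in the time course, but this contrast chose the members, so nothing is read from the count. The exceptions were ENSMODT00000012800 and ENSMODT00000043318, in which A3538 supplied most of the 48 h mean. These and ENSMODT00000013505 were the 3 members that took over 70% of their 48 h mean from 1 library, and 16 members took over 50% from 1. All of these identifiers were singled out after their values were seen.

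Differences between the 3 identifiers were fitted with edgeR's quasi-likelihood test in a model with time and identifier (15 libraries, 15524 transcripts, Benjamini-Hochberg adjustment). Of the 60 members, 5 were called at an adjusted p under 0.05, against 2.24% of all transcripts tested. The same 15 libraries chose the members, and a member can owe its place to 1 identifier, so the comparison is not independent of the choice and nothing is read from this count. ENSMODT00000012800 differed most. At 24 h it was at 138 CPM in A0036, 10.1 in A0039 and 532 in A3538, and at 48 h at 3.57, 0.608 and 51.8 CPM. Over the 5 times A3538 was 5.51 log2 units above A0039 and 2.77 above A0036 (adjusted p = 5.05e-05). In ENSMODT00000013505 A3538 was 1.88 log2 units above A0039 and 1.43 above A0036 (adjusted p = 0.00709), with 80.9 CPM at 48 h against 16.1 and 14.9. Both kept their call when any 1 of the 15 libraries was left out.

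The other 3 called were ENSMODT00000024800, ENSMODT00000005482 and ENSMODT00000044368 (adjusted p = 0.0187, 0.0454 and 0.0426). The A3538 minus A0039 difference was -1.06, -0.68 and 1.02 log2 units in that order. The count was 2 or 3 without any of 10 libraries, among them those of A3538 at 24 and 48 h, which gave 2. It was 8 without the 72 h library of A0039, and DESeq2 called 9.

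The second experiment measured the same transcripts in other cultures at 12 and 24 h, and there most members were lower in the 24 h than in the 12 h controls. The members' counts held 0.541 and 0.511% of the 12 h control libraries and 0.302 and 0.309% of the 24 h ones. Of the 60 members, 56 passed the filter on low counts (at least 10 counts in enough libraries). The other 4, ENSMODT00000009196, ENSMODT00000016773, ENSMODT00000032913 and ENSMODT00000042647, were singled out for that alone and did not exceed 2.48 CPM in any library of this experiment. In edgeR's quasi-likelihood test of the control means (10 libraries, 12565 transcripts), 7 members were called lower at 24 h, against 0.899% of all transcripts, and none was called higher, against 0.342%. The median log2 fold change of the 56 was -0.81, and 47 were below 0, while the median over all transcripts tested was 0.05 with 47.1% below 0. In 41 of the 56, both 24 h controls were below both 12 h controls, against 32.5% of all transcripts tested. DESeq2 called 15 members, 14 of them lower, against 3.35% of its transcripts called lower, and without filtering on low counts edgeR called 18, 16 of them lower.

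ENSMODT00000010625 measured 185 and 151 CPM in the 12 h controls but 22.4 and 22.8 CPM in those of 24 h (log2 fold change -2.83, SE 0.397, adjusted p = 0.00697). For ENSMODT00000044368 the 12 h values were 17.8 and 25.7 CPM and the 24 h values 3.14 and 3.31 CPM (-2.68, SE 0.548, adjusted p = 0.0327). In both, the 2 times did not overlap, and the gap between them was larger than the difference between the libraries of either time. All 7 belonged to the held group, which made up 40 of the 56 tested. The median log2 fold change was -0.99 in the held, -0.72 in the raised and -1.23 in the strongly raised group. The fall was thus not particular to the held group, and a difference between groups was not tested. Among the 7 called, ENSMODT00000042052, the member with the highest 48 over 72 h ratio, went from 131 and 108 to 28.01 and 17.6 CPM (adjusted p = 0.0278), and ENSMODT00000013505 went from 151 and 113 to 32.0 and 33.1 CPM (adjusted p = 0.0116). The abundant ENSMODT00000000395 had 1876 and 1409.8 CPM at 12 h against 683 and 734 CPM at 24 h, but did not pass (adjusted p = 0.0948; 1.1e-05 in DESeq2). ENSMODT00000012412 was at 102 and 152 against 108 and 121 CPM, so that its times overlapped.

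These calls rest on 2 libraries against 2. There were 0 without either 12 h control or without the 24 h control R3, 2 without the 24 h control R2, and 0 when a replicate block for the R number was fitted, in which only R2 links the times. There were 20 (18 lower) without either 24 h PFOA library, 19 (18 lower) for the time term of a model with treatment and time, and 28 (25 lower) in a model of the 4 controls alone. ENSMODT00000044368 also missed the threshold without the 12 h PFOA library at 800 µM (adjusted p = 0.0548) or at 400 µM (0.061). The median stayed between -1.06 and -0.69 in all of these.

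**Figure D3:**
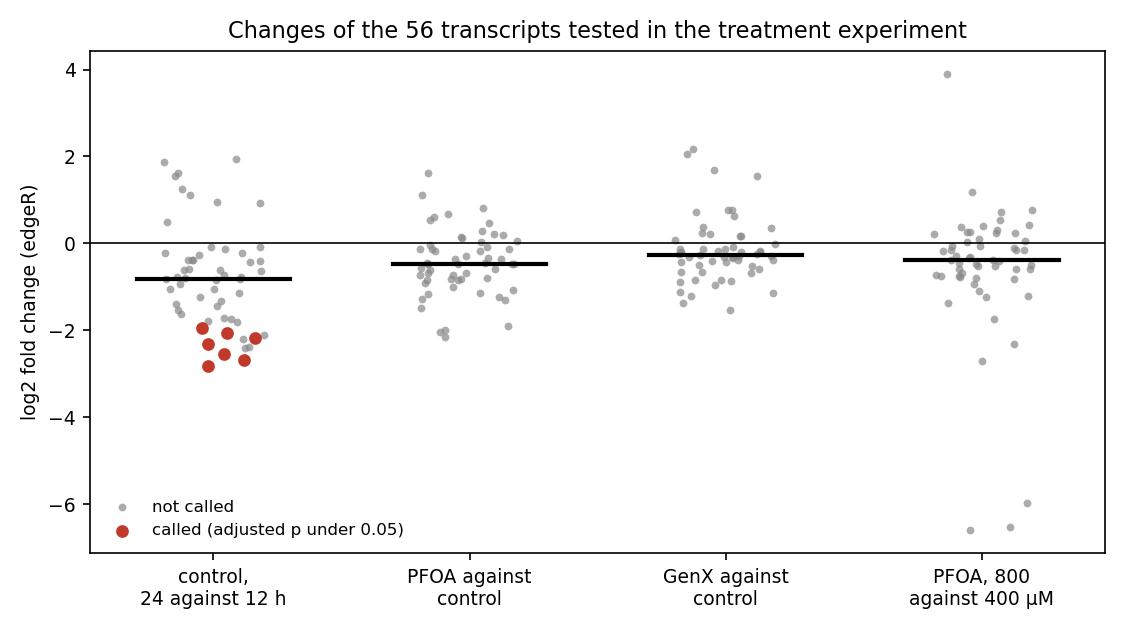
Log2 fold change (vertical axis, edgeR) of the 56 transcripts tested in each comparison of the second experiment (horizontal axis), 1 point a transcript, with the median as a black bar and called transcripts in red. The medians are -0.81, -0.46, -0.26 and -0.38, and the 7 called points are all in the comparison of 24 with 12 h controls.

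In the time course the same interval had looked different. From 12 to 24 h, 33 of the 60 members had a higher mean at 24 h, and the median change on the log2(CPM + 1) scale was 0.10, against -0.81 in the controls of the second experiment, where 50 of the 60 were lower. In 25 members the mean was higher at 24 h in the time course and lower in the controls, in 25 it was lower in both, in 8 higher in both, and in 2 lower in the time course and higher in the controls. ENSMODT00000044368 went from 13.4 ± 6.70 to 28.6 ± 13.4 CPM (SD, n = 3) in the time course, opposite to its change in the controls. ENSMODT00000010625 went from 42.5 ± 25.4 to 32.5 ± 18.6 CPM, within the spread between libraries. The limits on the 12, 24 and 48 h means kept out transcripts that had dropped early in the time course, so part of this contrast is set by the choice of members. The experiments were also scaled separately and differ in blood and depth. Cultures of the second experiment, controls included, contained 0.1% dimethyl sulfoxide, and the time course used 2 dilutions that are not tied to libraries. The difference between the experiments was not tested.

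**Figure D4:**
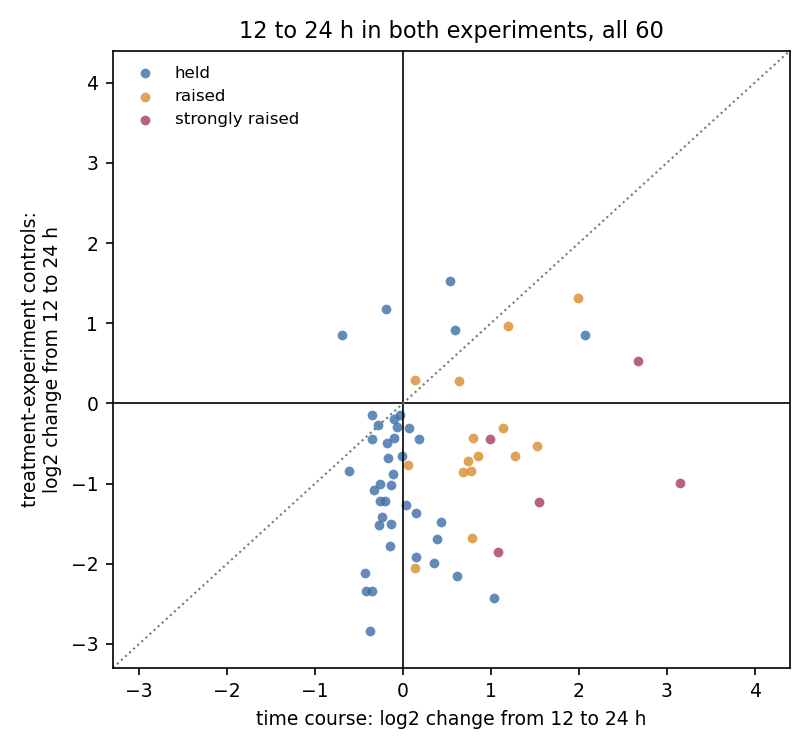
Log2 change from 12 to 24 h, computed from group means of CPM plus 1, in the time course (horizontal axis) and in the controls of the second experiment (vertical axis) for all 60 transcripts, coloured by group, with a dotted line of equality. Of the 60 points, 50 lie below the horizontal zero line, and 25 of these lie to the right of the vertical one.

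The groups also differed in level. The mean level in the 12 h controls had a median of 63.2 CPM in the held group, 14.9 in the raised group and 1.36 in the strongly raised group. The grouping by the 48 over 0 h ratio favours this order, as the 0 h medians were already 29.6, 12.5 and 7.89 CPM. The value of 1.36 CPM was that of ENSMODT00000016773, which did not pass the filter on low counts. ENSMODT00000011288, the highest member at 48 h in the time course, had 32.2 and 29.3 CPM in the 12 h controls but 10.9 and 14.2 CPM in those of 24 h. The strongly raised ENSMODT00000005766 had 7.49 and 7.80 CPM at 12 h but 1.67 and 1.10 CPM at 24 h. In the time course both had higher means at 24 than at 12 h.

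With PFOA, no member passed the test against control (4 libraries against 4, edgeR's quasi-likelihood test, Benjamini-Hochberg adjusted), and most lay somewhat lower. The call was made for 0.0796% of all 12565 transcripts. An unadjusted p under 0.05 was found for 14 of the 56 members, 13 of them lower, against 15.7% of all transcripts. DESeq2 called 5, all lower, against 5.96% of its transcripts called in either direction. The median log2 fold change of the members was -0.46, with 42 of 56 below 0, and that of all transcripts was -0.04, with 53.0% below 0. In 3 of 56 every PFOA library was below every control, against 6.72% of all transcripts. These were ENSMODT00000014684, ENSMODT00000019369 and ENSMODT00000038624, named after their values were seen. The gap was small in each: the highest PFOA and lowest control values were 105 and 112, 18.0 and 18.8, and 68.4 and 71.5 CPM. The count pools both culture times, so PFOA libraries of the earlier time also had to lie below controls of the later time. Most members were lower in the later than in the earlier controls, unlike the transcripts tested as a whole. The count therefore cannot show whether the members exceed the background, and nothing is read from it.

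The members with the smallest p were ENSMODT00000005773 and ENSMODT00000024800. ENSMODT00000005773 was at 295 and 169.7 CPM in the 12 h controls and at 89.8 and 25.2 CPM in the 12 h PFOA libraries at 400 and 800 µM. At 24 h it was at 69.2 and 64.7 CPM in controls and at 14.7 CPM at 400 µM, with no count at 800 µM, where 3 counts would be 8.49 CPM. It was thus lower with PFOA at each time (log2 fold change -2.15, SE 0.413, adjusted p = 0.0759). ENSMODT00000024800 was at 216.5 and 197 CPM in the 12 h controls and at 114 and 38.4 CPM at 400 and 800 µM, and at 78.2 and 49.6 CPM in the 24 h controls and at 4.89 and 5.66 CPM (-1.90, SE 0.405, adjusted p = 0.0988). Within each time its PFOA libraries were below its controls. Both passed in DESeq2 (adjusted p = 0.00041 and 0.00191), without the 24 h library at 800 µM (0.00811 and 0.0368) and without the 12 h library at 400 µM (0.00782 and 0.00721). The other 3 that DESeq2 called lower were ENSMODT00000005482, ENSMODT00000010625 and ENSMODT00000044368.

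PFOA libraries were shallower than controls, and the 24 h ones shallowest. The part of depth in the lower levels was not tested. In the 12 h libraries alone, of 2412085 counts and more, the median of the members was -0.29, and in the 24 h libraries alone it was -0.79, and whether the times differ was not tested. The median lay between -0.59 and -0.41 when any 1 of the 10 libraries was left out. The count of members called was 3 after removal of either the 24 h library at 800 µM or that of 12 h at 400 µM, and 5 without a filter on low counts.

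**Figure D5:**
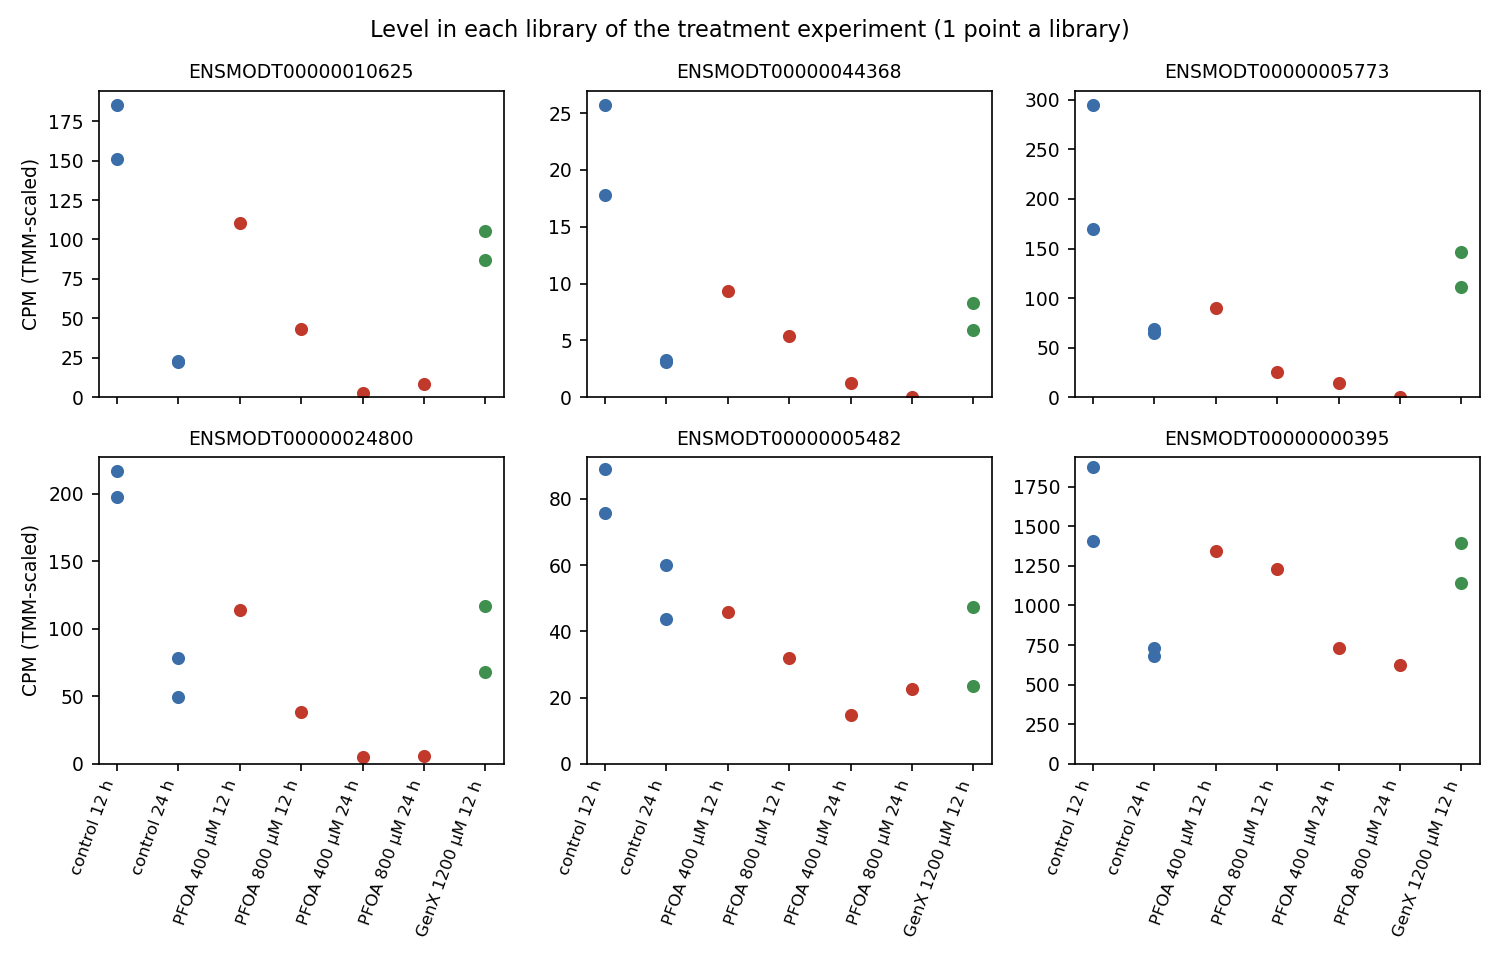
CPM (vertical axes, linear, starting at 0) of 6 named transcripts in each library of the second experiment, by treatment, dose and time (horizontal axes), 1 point a library. The 24 h controls lie below the 12 h controls in all 6, and ENSMODT00000005773 and ENSMODT00000024800 are lower with PFOA than in the controls of the same time. ENSMODT00000010625 and ENSMODT00000044368 were named for that fall between the controls. Not every named transcript showed it, and in ENSMODT00000012412, which is not drawn, the times overlapped.

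With GenX, no member passed the test either, against 0.00796% of all transcripts called, and 7 of 56 had an unadjusted p under 0.05, 5 of them lower, against 6.82%. DESeq2 called 0 members, against 0.501% of all transcripts. The median log2 fold change of the members was -0.26, with 41 of 56 below 0, beside -0.03 and 52.2% for all transcripts. Both GenX libraries were below both 12 h controls in 19 of 56 members, against 23.6% of all transcripts. ENSMODT00000005482 had the smallest p. It was at 75.7 and 89.0 CPM in the 12 h controls and at 47.4 and 23.5 CPM with GenX (log2 fold change -1.20, SE 0.352, adjusted p = 0.51 in edgeR's quasi-likelihood test). ENSMODT00000044368 was at 17.8 and 25.7 CPM in those controls and at 8.31 and 5.95 CPM with GenX (-1.52, SE 0.532, adjusted p = 0.556). The groups did not overlap in either transcript, but the adjusted p was far from the threshold.

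PFOA and GenX were given at different concentrations, so their values are set side by side only, and the shared controls mean that the changes are not independent. At 12 h ENSMODT00000005482 was at 45.8 and 31.8 CPM with 400 and 800 µM PFOA and at 47.4 and 23.5 CPM with 1200 µM GenX. ENSMODT00000044368 was at 9.35 and 5.37 CPM with PFOA and at 8.31 and 5.95 CPM with GenX. For ENSMODT00000005773 the values were 89.8 and 25.2 CPM with PFOA and 146 and 111 CPM with GenX, and for ENSMODT00000042052 they were 74.5 and 20.2 CPM with PFOA and 106 and 72.8 CPM with GenX. The 800 µM PFOA library was the lowest of the 4 in each of these transcripts except ENSMODT00000005482, in which a GenX library was.

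Between 800 and 400 µM PFOA no member passed (0.0159% of all transcripts called). An unadjusted p under 0.05 was found for 8 of 56, 7 of them lower at 800 µM, against 7.12%. DESeq2 called 0, against 1.12% of the 8180 transcripts to which it gave an adjusted p. It gave none for 14 of the 56 members, among them ENSMODT00000006242. In edgeR the median log2 fold change of the members was -0.38, beside -0.06 for all transcripts. ENSMODT00000005773 had the smallest p, with 25.2 CPM at 800 µM and 89.8 CPM at 400 µM at 12 h, and at 24 h no count and 14.7 CPM, respectively (log2 fold change -1.74, SE 0.49, adjusted p = 0.385 in edgeR's quasi-likelihood test). ENSMODT00000006242 was at 2.89 and 11.1 CPM at 12 h, and at 24 h had no count at 800 µM and 9.79 CPM at 400 µM (-2.70, SE 1.02, adjusted p = 0.57). At 24 h the lack of counts in both cannot be told from a level of up to 8.49 CPM, and possibly from a higher one. Without the 12 h library at 800 µM, which leaves the 366269 counts of the 24 h library to stand for that dose, 8 members were called lower and the median was -1.57.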

How the data were processed

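Poly(A) RNA from cultured whole blood was made into directional libraries, per the labels' protocols. The authors deposited 1 table per experiment of raw read counts per transcript, with no scaling. TopHat2 2.1.1 with Bowtie2, bedtools 2.30.0, Trimmomatic 0.36, FastQC 11.5, R 4.1.2 and edgeR are named in the submitters' processing notes. Not given in the sources used here were build, annotation release and strand setting, so overlapping, antisense or near-identical transcripts are uncertain. Each table held 22063 rows, of which 4 upper-case copies of another row were left out of the tests. Among counts of 1 to 12, 71% in the time course and 70.9% in the second experiment were even. Counts of 1 are thus no independent units, and the levels given for 3 counts cover counting error only.

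The members and lists were chosen with earlier results of these data known. Tests used edgeR 4.0.16 and limma 3.58.1 in R 4.3.3, across all transcripts, with TMM scaling, filterByExpr on the groups (minimum count 10), the quasi-likelihood F test and Benjamini-Hochberg adjustment over all transcripts tested, with 0.05 as the threshold on the adjusted p for a call. Identifier differences came from a model of time and identifier. PFOA and GenX effects came from a model of treatment and time, the dose effect from the same model with a term for 800 µM, and the comparison of 24 with 12 h controls from a model with 1 mean per treatment and time. The fits were tested on simulated data. DESeq2 1.42.0, RLE factors, no filter on low counts, removal of the 10 most abundant transcripts, the replicate number as a block, single times and leaving out each library were alternatives. Transcripts were named by a rule: the 2 highest at 48 h in each group, the 2 with the highest 48 over 72 h ratio, the 2 nearest the limit on each side, and in each test the 2 called with the largest difference per direction or, with none called, the 2 with the smallest p.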

Additional observations from a re-analysis of the deposited data

Results flagged for a closer look

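Among 16 named members, 32 groups of 4 libraries were examined for a library far from the others. Each group mixes 12 and 24 h, and the PFOA groups also mix doses, so no chance rate applies. Whether a flag reflects time or dose was not tested. ENSMODT00000042052 was at 74.5 CPM in the PFOA library at 400 µM and 12 h, far above the other 3 PFOA libraries at 19.6, 20.2 and 22.6 CPM. ENSMODT00000012800 was at 11.3 CPM in the PFOA library at 800 µM and 24 h and at 0, 0.246 and 1.24 CPM in the others. In that library 3 counts correspond to 8.49 CPM.

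ENSMODT00000011288 lay on opposite sides of its controls at the 2 times. The PFOA minus control difference of the means was -12.3 CPM at 12 h, with 19.2 and 17.8 CPM at 400 and 800 µM against 32.2 and 29.3 CPM. At 24 h it was 13.9 CPM, with 24.5 and 28.3 CPM against 10.9 and 14.2 CPM. The 24 h PFOA values rest on few counts, as 3 counts correspond to 3.67 CPM at 400 µM and 8.49 CPM at 800 µM. The difference between the times was not tested, and both 24 h PFOA libraries were numbered R1 and both 12 h ones R2.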

How the results depend on the processing

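The criteria kept 106 transcripts with library totals alone, a scaling that moved the median 48 over 0 h change of all transcripts from 0.06 to 0.94 on the log2 scale. They kept 9 with the 72 h mean at most an eighth of the 48 h mean, and 41 to 100 when 1 library was left out. Under the other 5 settings they kept 40 to 86, of which 43 of 65 were among the 60 with medians in place of means. Members called by identifier numbered 9 with DESeq2 and 2 to 8 without 1 library. For 24 against 12 h controls there were 18 without a low-count filter, 15 with DESeq2, 28 with the controls alone, 19 with the time term, 0 to 20 without 1 library and 0 with the replicate block. For PFOA there were 5 without the filter, 5 with DESeq2 and 0 to 3 without 1 library. For GenX there was 1 without the filter. For the dose there was 1 without the filter and 0 to 8 without 1 library, with medians of -1.57 to -0.15. The replicate block changed no other call (0 for PFOA, GenX and dose). Groups at one time share at most 1 of the numbers R1 to R4, so whether they pair the libraries could not be checked. No value of a named transcript and no median changed sign under any alternative. For the fall from 48 to 72 h the choice of members largely set this, and the identifier test has no sign. Other named values were picked for a large change or a small p, so little is read from their signs. Some named transcripts lost or gained their call under an alternative. RLE factors or removal of abundant transcripts moved no median of all transcripts by over 0.1. Depth limits what the 24 h PFOA libraries show.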
